A study of Mus musculus with 12 samples.

Results

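Expression of 10 genes of endothelial cells, the cells that line blood vessels, was examined in mouse spleen: Pecam1, Cldn5, Kdr, Cdh5, Tek, Tie1, Stab2, Flt1, Emcn and Egfl7. Their members on the array were all probe sets to which the platform annotation gives one of these symbols and no other. This rule found 17 probe sets among 45037, and 16 of them passed the filter on low values and were tested among 27041. Flt1 and Egfl7 had 4 probe sets each and Cdh5 had 2, while the other 7 genes had 1 each. Where a gene had several, the lead probe set was the one with the highest mean signal over the 12 arrays. The lead probe sets were 1421287_a_at (Pecam1), 1417839_at (Cldn5), 1449379_at (Kdr), 1433956_at (Cdh5), 1418788_at (Tek), 1416238_at (Tie1), 1419423_at (Stab2), 1419300_at (Flt1), 1425582_a_at (Emcn) and 1451428_x_at (Egfl7). The probe set that did not pass, Cdh5 1422047_at, lay between 36.8 and 87.9 on every array, under the floor of 100.

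Spleen RNA came from 12 BALB/c mice, 1 mouse per array. There were 4 groups of 3 mice each, made of 2 genotypes, wild type (wt) and Il1rn-deficient (ko), at the ages of 1 month and 4 months. The product of Il1rn is the interleukin-1 receptor antagonist, and BALB/c mice without it develop arthritis. The labels name neither the Il1rn allele nor the sex of the mice, and they count 3 mice for each genotype and age. Signals are those deposited for each probe set, on a linear scale in arbitrary units, scaled to a trimmed mean of 500 per array. Comparisons were fitted with limma on log2(signal + 32), and called means an adjusted p (Benjamini-Hochberg, over all 27041) below 0.05.

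Vessel endothelium is held together by adherens and tight junctions and is kept growing or quiescent by vascular endothelial growth factors (VEGF) and angiopoietins, which act through receptor tyrosine kinases on its surface. In the spleen, blood passes from small arteries into the open red pulp and is collected again by venous channels, whose lining cells also clear particles and matrix fragments from blood. Pecam1, Cldn5 and Cdh5 encode junction and adhesion proteins, Kdr and Flt1 encode VEGF receptors, and Tek and Tie1 encode the TIE receptors of the angiopoietin system. Stab2 encodes a scavenger receptor of sinusoidal endothelium, Emcn a surface sialomucin, and Egfl7 a protein that endothelial cells secrete.

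RefSeq promoter sequences (GRCm38.p6) were matched by symbol for 8 of the 10 genes, all but Pecam1 and Cdh5, in 10 windows of the 250 bases before a transcription start, since Egfl7 has 3 starts. Of these, 4 are printed here, on the strand of the gene and 5′ to 3′. Cldn5 was the member called between genotypes, at 1 month only, and that call was lost under several of the alternatives given below. Tie1 was called by age in both genotypes, and Flt1 and Stab2 were called by age in ko mice. Capitals mark GGAA, the core of the ETS factor motif, or its reverse complement TTCC. ETS factors are regulators of many endothelial genes.
Cldn5, chr16:18776597-18776846 (+ strand): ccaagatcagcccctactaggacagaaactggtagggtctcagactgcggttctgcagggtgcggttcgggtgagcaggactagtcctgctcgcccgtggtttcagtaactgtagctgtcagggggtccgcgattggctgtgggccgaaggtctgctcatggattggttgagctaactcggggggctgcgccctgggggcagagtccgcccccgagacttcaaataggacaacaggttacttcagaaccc
Tie1, chr4:118489850-118490099 (- strand): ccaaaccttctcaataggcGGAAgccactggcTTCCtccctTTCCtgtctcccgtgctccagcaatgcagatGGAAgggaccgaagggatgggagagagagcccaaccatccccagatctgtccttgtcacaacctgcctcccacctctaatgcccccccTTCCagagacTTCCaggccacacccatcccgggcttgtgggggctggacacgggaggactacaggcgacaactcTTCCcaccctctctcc
Flt1, chr5:147726012-147726261 (- strand): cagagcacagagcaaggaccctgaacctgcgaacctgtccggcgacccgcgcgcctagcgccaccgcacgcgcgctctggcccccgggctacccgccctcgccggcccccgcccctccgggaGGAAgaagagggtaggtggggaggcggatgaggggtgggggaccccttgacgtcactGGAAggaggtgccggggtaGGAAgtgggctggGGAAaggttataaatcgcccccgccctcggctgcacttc
Stab2, chr10:87007943-87008192 (- strand): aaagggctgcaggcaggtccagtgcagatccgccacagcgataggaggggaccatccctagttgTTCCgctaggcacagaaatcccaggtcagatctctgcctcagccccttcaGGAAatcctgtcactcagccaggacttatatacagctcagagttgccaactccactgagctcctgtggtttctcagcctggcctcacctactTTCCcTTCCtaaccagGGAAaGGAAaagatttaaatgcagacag

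Searched on both strands, GGAA was found 0 times in the Cldn5 window, 7 times in that of Tie1, 4 times in that of Flt1 and 6 times in that of Stab2. At least 1 match lay in 9 of the 10 member windows and in 93.4% of all 32851 windows of the table, whose median was 3 matches against 4 in the members. The longer CAGGAA, which overlaps the core, was found in 6 of 10 member windows, or 5 of 8 genes, and in 25.7% of all. CACCC, a motif of KLF factors, lay in 6 of 10 and in 52.0% of all, and ACAAT, a motif of SOX factors, in 2 of 10 and in 27.7%. AGATAA, a motif of GATA-binding factors, lay in 0 of 10 and in 9.99% of all windows. TAAACA, a motif of FOX factors, lay in 0 of 10 and in 3952 of the 32851. TATAAA lay in 1 member window, that of Flt1, and in 12.4% of all windows. These matches are of letters alone, and their bearing on the calls was not tested.

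The arrays had median deposited signals of 113 to 147, and 52.1% to 59.2% of probe sets reached 100. By their highest deposited signal they fell into a low set and a high set of 6 arrays each, on either side of 44584. The low set held the 3 arrays of young ko mice together with replicate 3 of wt at 1 month, replicate 3 of wt at 4 months and replicate 2 of ko at 4 months. At 1 month, ko and the low set therefore share all but 1 array. Of 3 Il1rn probe sets tested, 1 was called lower in ko at each age, 1451798_at, whose log2 difference was -1.70 at 1 month and -2.17 at 4 months. One wt array at 4 months, replicate 2, carried a summed signal of 141280 for 7 pancreas genes, against 1234 to 2494 on the other 11 arrays. The lead probe sets of all 10 endothelial genes had group means above 100 in every group, with 1 single value below it, Emcn at 93.7 in a ko mouse at 1 month, and their summed signal was 5738 to 11532 per array. In whole spleen, fewer endothelial cells and less RNA per cell cannot be told apart.

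**Figure D1:**
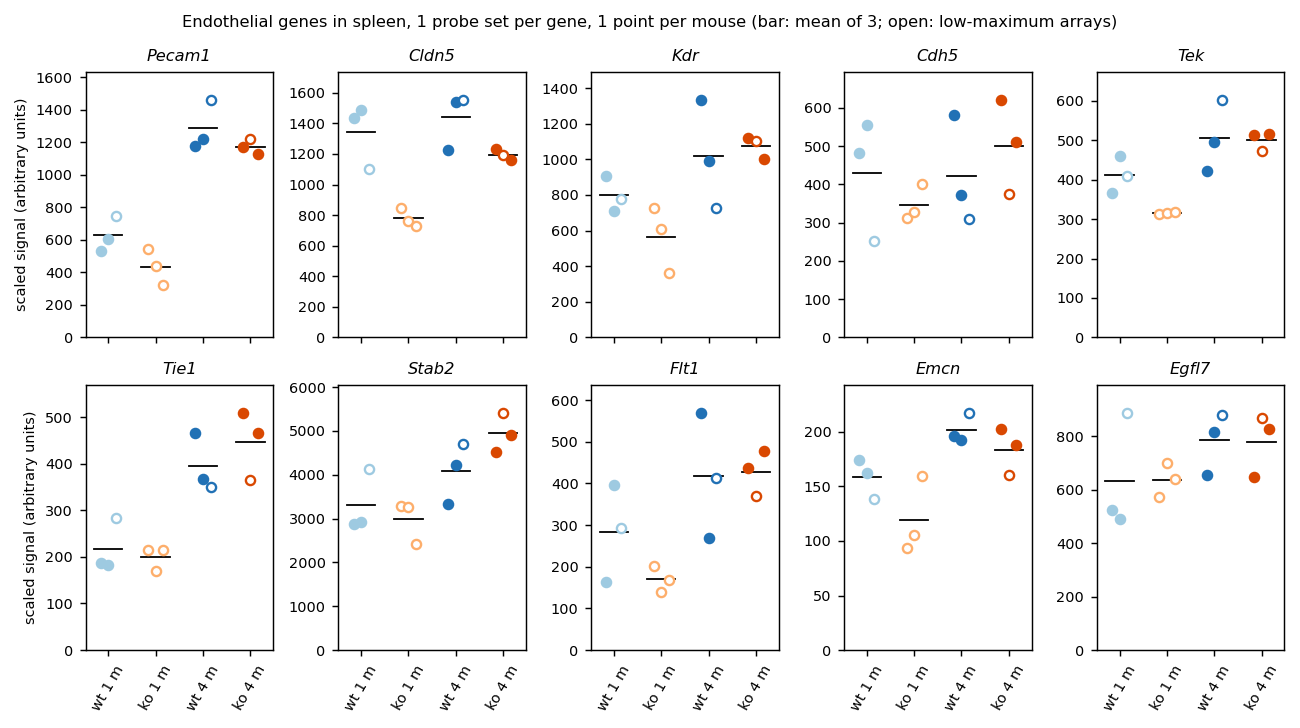
Scaled signal (arbitrary units, linear axis from 0) of the lead probe set of each of the 10 genes, 1 point per mouse in 4 groups, with a bar at the mean of 3; open points are arrays of the low set. The 3 ko points at 1 month have the lowest mean of the 4 groups in 9 of 10 panels, all but Egfl7, and no ko point at 1 month reaches the ko points at 4 months in the panels of Pecam1, Cldn5, Kdr, Tek, Tie1, Stab2, Flt1 and Emcn.

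Ko spleens at 1 month had the lowest group mean of the 4 groups for 9 of the 10 genes, and only Egfl7 was lowest in wt at 1 month. The highest mean belonged to wt at 4 months for 5 genes and to ko at 4 months for the other 5. From lowest to highest group mean, the lead probe sets spanned between 0.33 log2 units for Egfl7 and 1.52 for Pecam1. Flt1 spanned 1.19, Tie1 1.04, Kdr 0.94, Cldn5 0.85, Stab2 0.73, Emcn 0.65, Tek 0.62 and Cdh5 0.47.

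At 1 month, the genotype comparison asks what loss of the antagonist did in young mice. Cldn5, which encodes the tight junction protein claudin-5, was lower in ko and was the member called. Its signals were 1436, 1486 and 1103 in the wt mice and 845, 764 and 731 in the ko mice. Every ko mouse lay below every wt mouse. The means were 1342 ± 208 and 780.2 ± 58.7 (SD, n = 3), a log2 difference of -0.75 (SE 0.15, 95% interval -1.07 to -0.43), or 1.68-fold lower, with a limma adjusted p of 0.0383. Across all tested probe sets, 0.444% were called at 1 month in either direction and 0.24% were called lower, against 1 of the 16 members, or 6.25%. The call was lost under quantile normalization, median centring, a prior without an intensity trend and a fit of the 2 groups alone. Blocks for replicate number, for array set and for both together also ended it. Over these settings the adjusted p was 0.0557 to 0.329. Within the low set, which has 3 ko mice but 1 wt mouse at 1 month, the difference was -0.49, a value that cannot be weighed because the wt mouse has no replicate. It was also lost without replicate 1, 2 or 3 of ko (-0.81, -0.74 and -0.71, adjusted p of 0.0679, 0.131 and 0.22) or replicate 1 or 2 of wt (-0.70 and -0.67, adjusted p of 0.121 and 0.229), whereas without replicate 3 of wt it was -0.88 (adjusted p of 0.0068).

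The other junction proteins gave smaller differences. Pecam1, which encodes the adhesion molecule CD31, measured 529, 607 and 749 in wt and 543, 438 and 322 in ko at 1 month. The groups overlapped by 1 mouse on each side, and the log2 difference was -0.52 (SE 0.18, adjusted p of 0.197 in limma). Cdh5, which encodes VE-cadherin of adherens junctions, measured 481, 554 and 253 in wt and 311, 329 and 400.2 in ko. Its wt values enclosed all 3 ko values, with a log2 difference of -0.23 (SE 0.27, adjusted p of 0.712).

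Among the receptors at 1 month, none was called. Kdr, the main signalling receptor for VEGF-A, measured 907, 710.5 and 776 in wt and 729, 606 and 362 in ko, a log2 difference of -0.52 (SE 0.23, adjusted p of 0.291). Flt1, a VEGF receptor that also acts as a decoy, measured 163, 396 and 294 in wt and 203, 140.0 and 167 in ko by its lead probe set, a difference of -0.58 (SE 0.28, adjusted p of 0.321). The low wt value of Flt1 lay inside the ko range, while for Kdr a single ko value lay inside the wt range. Tek, the angiopoietin receptor TIE2, measured 367, 461 and 409.6 in wt and 313, 315 and 318 in ko. Its groups did not overlap, the 3 ko values were nearly equal, and the difference was -0.35 (SE 0.16, adjusted p of 0.312). Tie1, the partner receptor of TIE2, differed by -0.09 (SE 0.21, adjusted p of 0.863).

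The remaining members at 1 month were not called either. Stab2 measured 2880, 2924 and 4138 in wt and 3282, 3256 and 2425 in ko, a log2 difference of -0.14 (SE 0.18, adjusted p of 0.723). Emcn differed by -0.35 (SE 0.22, adjusted p of 0.454) and Egfl7 by 0.05 (SE 0.21, adjusted p of 0.931). In all, 14 of the 16 tested probe sets had a lower estimate in ko, with a median of -0.24 against -0.04 for all probe sets. An unadjusted p under 0.05 was reached by 4 of them, those of Pecam1, Cldn5, Kdr and Tek, and the share of all probe sets at that p is not given here. Groups did not overlap for 2 of 16 (Cldn5 and Tek), or 12.5%, which is below the 19.9% of all tested probe sets whose groups did not overlap at 1 month.

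**Figure D2:**
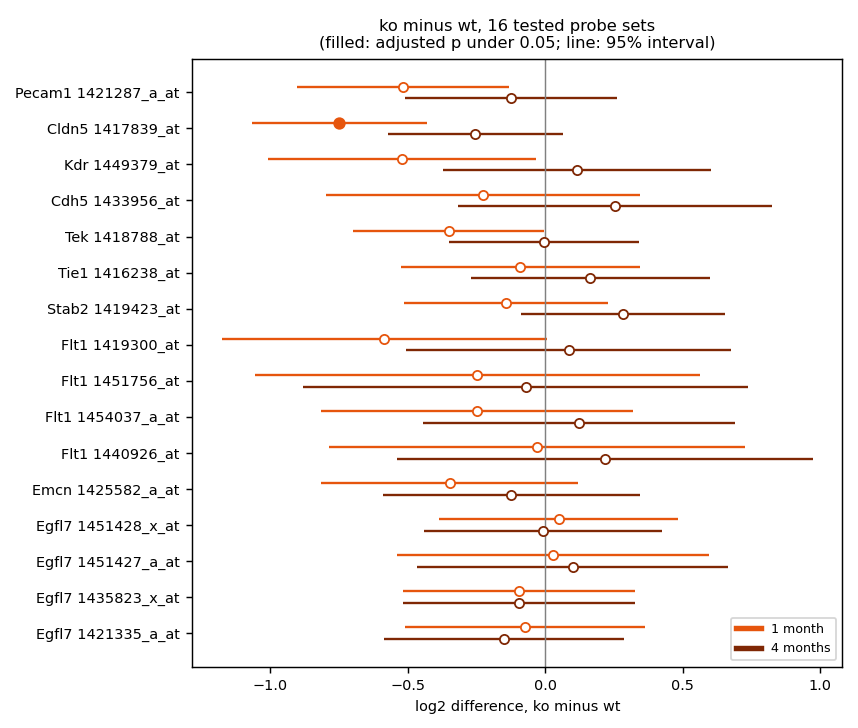
Log2 difference between ko and wt mice at 1 month and at 4 months for the 16 tested probe sets, with 95% intervals from limma; filled points passed an adjusted p under 0.05. The Cldn5 point at 1 month, at -0.75, is the filled one, and at 4 months every interval includes 0.

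At 4 months, no member probe set was called between ko and wt by limma (0 of 16), none had an unadjusted p under 0.05, and the adjusted p ran from 0.436 to 0.995. In this comparison 2.3% of all tested probe sets were called. Cldn5 measured 1229, 1539 and 1551 in wt and 1233, 1193 and 1161 in ko, a log2 difference of -0.25 (SE 0.15, 95% interval -0.57 to 0.06, adjusted p of 0.436). Stab2 measured 3342, 4225 and 4701 in wt and 4524, 5409 and 4900.4 in ko, with 1 wt value inside the ko range and a difference of 0.28 (SE 0.18, 95% interval -0.09 to 0.65). The Tek means were 506 ± 89.8 and 500.3 ± 24.2 (SD, n = 3), and its difference of -0.00 had an interval from -0.35 to 0.34. Estimates were higher in ko for 8 of the 16 and lower for 8, and their median was 0.04. For 1 of 16, Egfl7 1421335_a_at, the ko values (222, 229 and 229.8) all lay below the wt values (248, 231 and 289.8), against 22.3% of all probe sets without overlap at 4 months. This difference was -0.15 (SE 0.21, adjusted p of 0.785).

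The difference between the 2 genotype effects was tested as an interaction, and 0 of 16 member probe sets were called, as were 0.0481% of all. Cldn5 was the 1 member with an unadjusted p under 0.05 (0.0331), at 0.50 log2 units (SE 0.21, 95% interval 0.04 to 0.95, adjusted p of 0.531). Flt1, at 0.67 (SE 0.39), and Kdr, at 0.64 (SE 0.33), had intervals that include 0. The genotype effect was therefore not shown to differ between 1 and 4 months for any member, although 14 of 16 estimates were above 0.

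With age more members were called than between genotypes. In ko mice, 7 of the 16 probe sets, 1 for each of Pecam1, Cldn5, Kdr, Tek, Tie1, Stab2 and Flt1, were higher at 4 months than at 1 month. That is 43.8% of the members, where 22.9% of all tested probe sets were called and 13.6% were called higher. Counted by gene, 7 of 10 had a probe set called higher, against 18.7% of 12339 genes. All 16 estimates were above 0, with a median of 0.56 against 0.10 over all probe sets. The 2 age groups of ko did not overlap for 10 of 16, or 62.5%, against 46.6% of all. These ko mice at 1 month are those of the genotype comparison above, so the values of both comparisons share them. Within the low set, which has 3 ko mice at 1 month but 1 at 4 months, the differences of these 7 were 1.45 for Pecam1, 1.00 for Flt1, 0.98 for Kdr, 0.86 for Stab2, 0.78 for Tie1, 0.60 for Cldn5 and 0.54 for Tek, given as values because the older mouse has no replicate.

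Pecam1 rose from 434 ± 111 (SD, n = 3) in ko at 1 month to 1174 ± 46.4 at 4 months, 2.64-fold, a log2 difference of 1.40 (SE 0.18, limma adjusted p of 0.000131). Its values at 4 months were 1175, 1219.9 and 1127, each above 543, the highest at 1 month. Cldn5 rose from 780.2 ± 58.7 to 1196 ± 36.5, a log2 difference of 0.60 (SE 0.15, adjusted p of 0.00932), and all 3 older ko mice lay above all 3 younger ones. Median centring (0.45, adjusted p of 0.0576) ended this Cldn5 call, as did blocks for replicate number and array set together. For Cdh5 the values at 4 months were 619.7, 375 and 511, of which 1 lay inside the range at 1 month. Its difference of 0.47 (SE 0.27) had an adjusted p of 0.227.

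Both VEGF receptors rose with age in ko. Kdr went from 566 ± 187 to 1075 ± 64.3 (SD, n = 3), with single values of 1121, 1103 and 1001 at 4 months, a log2 difference of 0.94 (SE 0.23, limma adjusted p of 0.008). Flt1, by its lead probe set, went from 170.1 ± 31.5 to 428 ± 54.9, with 436, 369.8 and 479 at 4 months, a difference of 1.19 (SE 0.28, adjusted p of 0.00605). The other 3 Flt1 probe sets were not called, with differences of 0.70, 0.52 and 0.30 and adjusted p of 0.206, 0.178 and 0.596. They lay near the floor, with 95.4 ± 3.71 in ko at 1 month and 154 ± 41.9 at 4 months for 1454037_a_at, for example.

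The TIE receptors rose as well. Tie1 went from 214, 169 and 215 in ko at 1 month to 508, 364 and 465 at 4 months, 2.06-fold, a log2 difference of 1.04 (SE 0.21, limma adjusted p of 0.00204). Tek went from 315 ± 2.43 to 500.3 ± 24.2 (SD, n = 3), 1.53-fold, a difference of 0.62 (SE 0.16, adjusted p of 0.0129). The Tek call was lost without replicate 1 or replicate 3 of ko at 4 months (0.60 and 0.59, adjusted p of 0.0501 and 0.0509). It was also lost under quantile normalization (0.45, adjusted p of 0.0696), median centring (0.46, adjusted p of 0.0809) and blocks for replicate number and array set together. Adjusted p was up to 0.0809 over the alternatives that kept at least 2 mice in each group.

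Stab2, the sinusoidal scavenger receptor, rose from 2988 ± 488 in ko at 1 month to 4944 ± 444 at 4 months (SD, n = 3). The difference was 0.73 on the log2 scale (SE 0.18, limma adjusted p of 0.00703), 1.66-fold, and no young ko mouse reached an older one. Emcn measured 93.7, 106 and 159.7 at 1 month and 203, 160.2 and 188 at 4 months. Its age groups in ko did not overlap, but the gap was narrow and the difference of 0.53 (SE 0.22) was not called (adjusted p of 0.0988). Egfl7 gave 0.27 (SE 0.21, adjusted p of 0.372) by its lead probe set and 0.30, 0.13 and 0.20 by the others, none of them called. A pair of its 4 probe sets carry the suffix of sets that may also bind related transcripts.

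In wt mice, 2 of 16 member probe sets were called with age, both higher at 4 months: those of Pecam1 and Tie1. That is 12.5% of the members, where 21.4% of all tested probe sets were called and 11.8% were called higher, so the share was near that of all probe sets. Pecam1 measured 529, 607 and 749 at 1 month and 1179, 1221 and 1459 at 4 months, a log2 difference of 1.00 (SE 0.18, adjusted p of 0.00112 in limma), or 2.01-fold. The age groups of Pecam1 were as far apart as 749 and 1179 at their nearest. Tie1 measured 187, 182 and 282 at 1 month and 466, 366 and 350.2 at 4 months, a difference of 0.79 (SE 0.21, adjusted p of 0.0125), or 1.73-fold. The Tie1 call was lost without replicate 1 of wt at 4 months (0.67, adjusted p of 0.0502) and in a fit of the 2 groups alone (adjusted p of 0.0517). Within the high set, with 2 mice per age, Pecam1 gave 1.04 (adjusted p of 0.00477) and Tie1 1.04 (adjusted p of 0.017), while the single pair of wt mice in the low set, which has no replicate, differed by 0.93 in Pecam1 and 0.28 in Tie1.

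The other 8 genes were not called with age in wt. Flt1 gave 0.52 (SE 0.28, adjusted p of 0.199 in limma) by its lead probe set, and its values at 4 months, 569, 269.9 and 412, were widely spread. Stab2 gave 0.31, Kdr 0.30, Emcn 0.30, Tek 0.27 and Egfl7 0.33 on the log2 scale. Cldn5, at 0.10 (SE 0.15, 95% interval -0.22 to 0.42), and Cdh5, at -0.01 (SE 0.27, 95% interval -0.58 to 0.57), were the nearest to 0. Age groups in wt did not overlap for 3 of 16 (Pecam1, Tie1 and Emcn), or 18.8%, against 31.6% of all. The 7 calls in ko against 2 in wt do not show that the age effect differed: the test of that difference is the interaction above, which called 0 of 16.

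**Figure D3:**
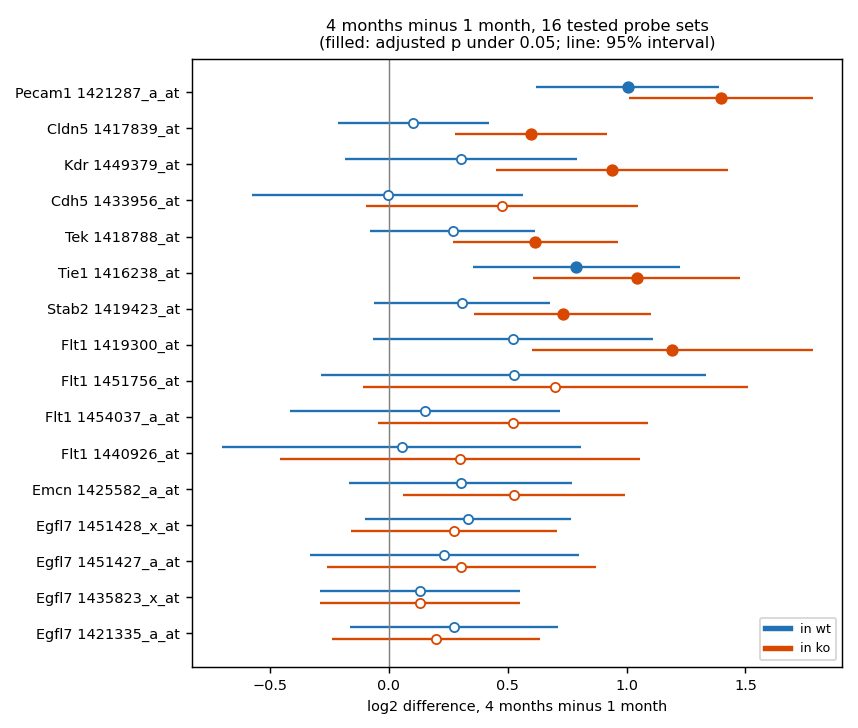
Log2 difference between 4 months and 1 month in wt and in ko mice for the 16 tested probe sets, with 95% intervals from limma; filled points passed an adjusted p under 0.05. Pecam1 and Tie1 are filled in both genotypes, and Cldn5, Kdr, Tek, Stab2 and the lead probe set of Flt1 are filled in ko; the ko point lies to the right of the wt point for every gene but Egfl7, whose probe sets are mixed.

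In the order of the group means, neighbours were often not separated. For Pecam1 the order was ko then wt at 1 month, followed by ko then wt at 4 months, and the gap between the ages was the one step without overlap. Tek had the same order, and its ko mice at 1 month stood below all other mice. Cldn5 was ordered ko at 1 month, ko at 4 months, wt at 1 month and wt at 4 months. The first step of Cldn5 was free of overlap (845 against 1161), and the later ones were not. Emcn was ordered like Pecam1, and Cdh5, with ko at 1 month lowest and ko at 4 months highest, had overlap at every step. For Kdr, Tie1, Stab2 and Flt1 the order was ko then wt at 1 month and wt then ko at 4 months.

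The wt mouse at 1 month, replicate 3, stood apart from the other 2 in several members: it was the highest of its group for Pecam1 (749), Tie1 (282), Stab2 (4138) and Egfl7 (886) and the lowest for Cldn5 (1103), Cdh5 (253) and Emcn (139). This is the wt array at 1 month that belongs to the low set. Without it, 3 members were called with age in wt, Egfl7 being the one added, and the Cldn5 difference at 1 month is given above.

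Across the 12 arrays, the lead probe sets of the 10 genes varied together to unequal degrees. Over the 45 pairs of genes, Pearson's r of the log2 values had a median of 0.58, from -0.50 (Cdh5 with Egfl7) to 0.89 (Pecam1 with Tek), and 43 were above 0. The median r of a gene with the other 9 was 0.78 for Pecam1 and 0.75 for Tek, and was lowest for Cdh5 (0.31) and Egfl7 (0.28). These values pool 4 groups that differ in age and genotype, so they describe the pattern over groups as well as that within them. Between probe sets of one gene, r ran from 0.41 to 0.82 for Egfl7 and from -0.04 to 0.84 for Flt1.

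The genes most like each member, out of 12316 others, were taken by Pearson's r over the same 12 arrays. Pecam1 was closest to Shtn1 (0.98), Cers4 (0.97) and the MHC class II gene H2-Ab1 (0.97). Cldn5 was closest to Cd86 (0.96), which encodes a costimulatory molecule, Ndnf (0.96) and Zfp521 (0.95). Kdr was closest to Exoc1 (0.94), Shld2 (0.93) and Patj (0.93), and Cdh5 to Nr2c2 (0.89), Tor1aip1 (0.89) and Coro6 (0.88). For Tek they were P2ry14, Ccnd1 (both 0.97) and Synm (0.96), and for Tie1 Dennd4b, Lcp2 (both 0.98) and Septin9 (0.97). Stab2 was closest to Fcgrt (0.93), Avpi1 (0.93) and Serpinb6a (0.93), Flt1 to Lifr (0.96), Bambi (0.95) and Ms4a7 (0.95), Emcn to Ankrd12 (0.92), Tbx6 (0.92) and the Eph receptor Ephb4 (0.92), and Egfl7 to Mif4gd (0.93), Nfkbid (0.90) and Plk3 (0.88).

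Other endothelial genes were counted in 6 lists, a gene counting as called where any of its probe sets was. Its value is that of the lead probe set where that was called, and otherwise that of another called probe set. Where a contrast called no gene, values are those of the probe set with the smallest p, lead or not. Counts at an unadjusted p under 0.05 also take any probe set, and the share of all genes at that p is not given here. Among 28 other surface receptors and junction proteins, 21 were called higher at 4 months in ko and 6 in wt, and none was called lower, with median log2 differences of 0.64 in ko and 0.31 in wt against 0.09 and 0.08 over all genes. Of all 12339 genes, 18.7% were called higher with age in ko and 16.7% in wt, and 13.2% and 12.7% were called lower. Between genotypes, 0.389% of them were called higher in ko and 0.381% lower at 1 month, and 2.94% and 0.721% at 4 months. These shares stand beside the counts of all 6 lists. Called in ko were Flt4, Nrp1, Nrp2, Eng, Acvrl1, Esam, Icam2, Ptprb, Clec14a, S1pr1, Calcrl, Ramp2, Plvap, Jam2, Rasip1, Heg1, Mmrn2, Vwf, Gpihbp1, Nos3 and Thbd. Jam2, a junctional adhesion molecule, rose by 1.29 (SE 0.23, limma adjusted p of 0.00104), Ptprb, the phosphatase that acts on TIE2, by 1.11 (SE 0.16, adjusted p of 0.000314), and Plvap, of the diaphragms of fenestrated vessels, by 1.02 (SE 0.18, adjusted p of 0.00107). In wt they were Icam2, Ptprb, S1pr1, Plvap, Jam2 and Heg1, with S1pr1, the sphingosine-1-phosphate receptor, at 0.80 (SE 0.18, adjusted p of 0.00522).

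Between genotypes, this list gave 0 calls of 28 at 1 month in limma. At an unadjusted p under 0.05, 13 genes were lower, a count that has no share of all genes beside it. Nrp1, a VEGF co-receptor, at -0.58 (SE 0.16, adjusted p of 0.118), and S1pr1, at -0.62 (SE 0.18, adjusted p of 0.128), had the smallest p. At 4 months Vwf was called higher in ko, by 1.17 (SE 0.20, adjusted p of 0.00584). Vwf encodes von Willebrand factor, which endothelial cells and megakaryocytes both make, and 10 of 13 megakaryocyte and platelet markers, Vwf and Selp among them, were higher in ko at that age. The interaction called 0 of 28, with 9 above 0 at an unadjusted p under 0.05, led by Nrp1 (0.86, adjusted p of 0.274) and Gpihbp1 (0.82, adjusted p of 0.328).

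Of 8 tested sinusoidal and lymphatic genes, Mrc1 (0.81), Clec4g (1.14), Fcgr2b (1.26) and Ehd3 (0.82) rose with age in ko. The Clec4g mean in ko at 1 month was 72.3, under the floor. Fcgr2b (0.82) and Ehd3 (0.52) rose and Cd36 (-0.44) fell with age in wt. That is 2 of 8 higher and 1 of 8 lower in wt, against 16.7% and 12.7% of all genes. Mrc1 and Fcgr2b, a scavenger and an Fc receptor, are also made by macrophages. No gene of this list was called between genotypes by limma at 1 month, where 4 were lower at an unadjusted p under 0.05 with Cd36 (-0.59, adjusted p of 0.148) and Fcgr2b (-0.38, adjusted p of 0.198) first. At 4 months there were 0 calls and 0 genes at an unadjusted p under 0.05, with Mrc1 at 0.25 (adjusted p of 0.454) and Ehd3 at 0.27 (adjusted p of 0.497). The interaction gave 0 calls and 3 genes at an unadjusted p under 0.05, Cd36 (0.53) and Mrc1 (0.60) leading. Of 4 tested adhesion molecules of activated endothelium, Vcam1 (1.00), Icam1 (0.86) and Madcam1 (0.66) rose with age in ko, and the same 3 in wt, by 0.54, 0.81 and 0.74. Vcam1 is also one of the macrophage markers counted below. At 1 month 0 were called and 1, Vcam1 (-0.45, adjusted p of 0.216), was lower at an unadjusted p under 0.05, with Madcam1 at -0.34 (adjusted p of 0.422) next. At 4 months Selp, P-selectin of endothelium and platelets, was higher in ko by 0.84 (SE 0.20, adjusted p of 0.038). The interaction called 0, with Vcam1 at 0.89 (adjusted p of 0.274) and Selp at 0.56 (adjusted p of 0.61) first and 1 gene at an unadjusted p under 0.05.

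Among 17 endothelial transcription factors, 11 rose with age in ko: Fli1 (0.71), Ets1 (0.96), Ets2 (0.50), Sox17 (0.81), Sox18 (1.02), Klf2 (0.88), Epas1 (0.71), Hhex (0.56), Mef2c (1.02), Foxo1 (0.99) and Nr2f2 (0.87). In wt, 8 of them rose, Fli1 (0.53), Ets1 (0.64), Ets2 (0.67), Sox18 (0.53), Klf2 (0.69), Hhex (0.56), Mef2c (0.76) and Foxo1 (0.54). Many of these are also active in blood cells, as are Fli1, Ets1 and Mef2c in lymphocytes or platelets. Tal1, which acts in endothelium and in red cell precursors, fell with age by 1.62 log2 units in wt and by 0.83 in ko, and it was higher in ko than wt at 4 months by 1.25 (SE 0.16, limma adjusted p of 0.000558). Mef2c was lower in ko at 1 month by 2 probe sets (-0.83 and -0.86, adjusted p of 0.0351 and 0.0242) and at 4 months by 1 (-0.74, adjusted p of 0.0408). No Mef2c probe set was called between genotypes at both ages, and the lead was called at neither. The interaction called 0 of 17, with 3 above 0 at an unadjusted p under 0.05 and Tal1 (0.79, adjusted p of 0.295) and Nr2f2 (0.81, adjusted p of 0.446) first.

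Ligands and regulators of the VEGF and angiopoietin receptors had 3 genes called with age. Of 10 tested, Vegfa (1.24) and Sema3f (2.08 and 0.80 by a pair of probe sets) rose with age in ko, and Angpt2, an angiopoietin, fell by 2.28 in wt. These counts, 2 of 10 higher in ko and 1 of 10 lower in wt, were near the 18.7% and 12.7% of all genes. For Vegfa, Sema3f and Angpt2 the called probe sets were not the lead. The called Angpt2 probe set had a mean of 31.3 in wt at 4 months, under the floor. The Angpt2 lead went from 571 to 369 in wt and was not called. The Sema3f probe set at 2.08 had a mean of 97.9 in ko at 1 month. Between genotypes limma called 0 at 1 month and 0 at 4 months, with 1 higher and 1 lower, and 3 higher and 2 lower, at an unadjusted p under 0.05. Vegfb (0.56, adjusted p of 0.291) and Angpt2 (-0.68, adjusted p of 0.31) had the smallest p at 1 month, and Hif1a (-0.72, adjusted p of 0.161) and Adm (-0.74, adjusted p of 0.226) at 4 months. The interaction also called 0, with 2 at an unadjusted p under 0.05, Angpt2 (1.32, adjusted p of 0.453) and Angpt1 (0.66, adjusted p of 0.482). Of 7 Notch pathway genes, the ligand Dll1 (0.91) and the receptors Notch1 (0.50) and Notch4 (1.22) rose and the feedback regulator Nrarp (-1.47) fell with age in ko, while Dll1 (0.67) and Notch1 (0.58) rose in wt. The Nrarp probe set was not the lead, and its ko mean went from 196 to 56.3, under the floor. Of the 7, 3 were called higher and 1 lower in ko and 2 higher in wt, against 18.7%, 13.2% and 16.7% of all genes. Notch genes called between genotypes numbered 0 in limma at each age and 0 in the interaction, each with 1 at an unadjusted p under 0.05. Nrarp (0.95, adjusted p of 0.311) and Dll4 (-0.68, adjusted p of 0.379) came first at 1 month, Dll4 (-0.96, adjusted p of 0.209) and Notch4 (0.57, adjusted p of 0.339) at 4 months, and Nrarp (-1.59, adjusted p of 0.489) and Notch4 (0.69, adjusted p of 0.662) in the interaction.

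**Figure D4:**
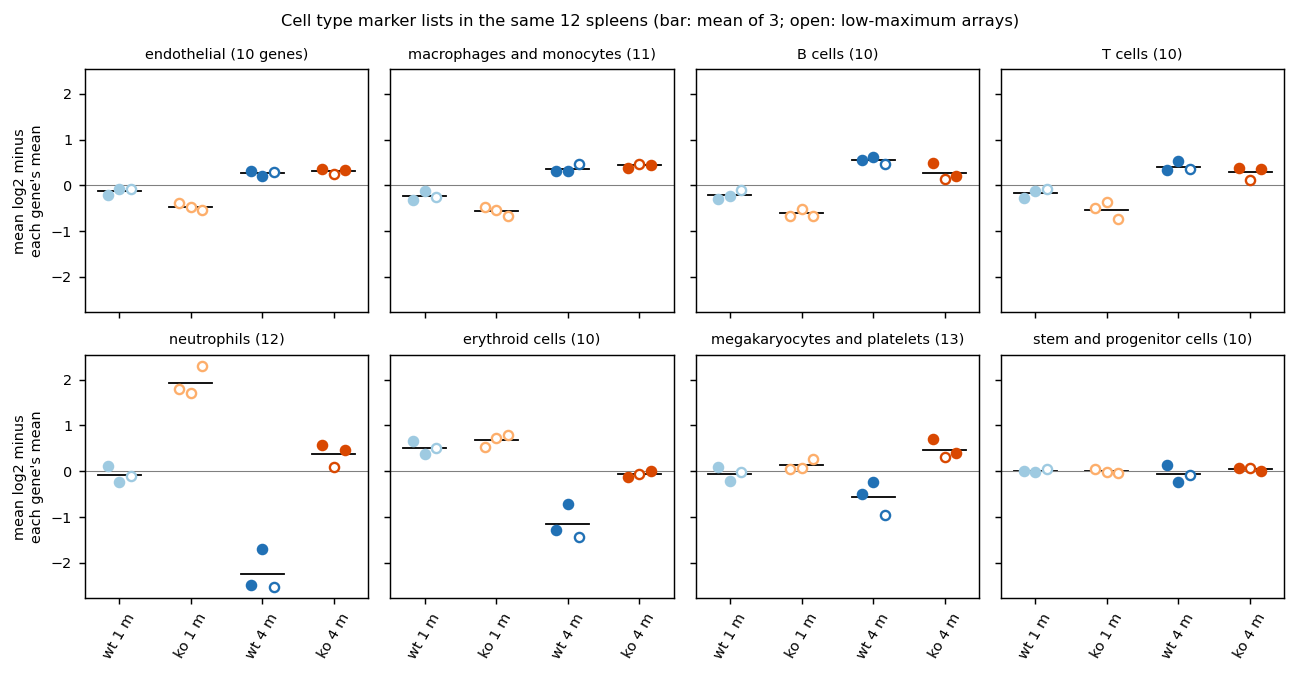
Mean over each marker list of the log2 signal minus the mean of each gene over the 12 arrays, 1 point per mouse in 4 groups with a bar at the mean of 3; open points are arrays of the low set. In the endothelial, macrophage, B cell and T cell panels, all mice of both genotypes lie below 0 at 1 month and above it at 4 months. The ko mice at 1 month lie lowest in these panels. Erythroid points are lower at 4 months than at 1 month, and neutrophil markers are highest in ko at 1 month.

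Markers of several other spleen cells moved with the same groups, and their part in the endothelial values was not tested. At 1 month the summed signal of 12 neutrophil genes was 130260 to 161890 in ko against 44815 to 55087 in wt, with 12 of 12 called higher, beside the lower Cldn5. Summed macrophage markers at 1 month were 25862 to 32205 in ko and 35297 to 44723 in wt, with 1 of 10, Marco, called lower and a median of -0.35, beside -0.35 for the lead endothelial probe sets. B cell and T cell medians at 1 month were -0.47 and -0.42, with 1 of 10 (Cr2) and 0 of 10 called lower. At an unadjusted p under 0.05, 7 of 10 B cell genes and 6 of 10 T cell genes were lower. Of 10 macrophage genes, 6 were lower and 1 was higher at that p. Stroma (fibroblasts, pericytes and smooth muscle) had a median of -0.20 with 1 of 16, Postn, called lower and 6 lower at that p. Medians at 1 month were 0.13 for erythroid, 0.17 for megakaryocyte and 0.01 for stem and progenitor markers. Of these last, Myb was called higher. The adipose median at 1 month was -0.68, with 0 of 3 genes called and 0 at an unadjusted p under 0.05.

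With age in ko, beside the 7 endothelial genes, 9 of 10 macrophage genes (median 1.16), 8 of 10 B cell genes (1.01) and 10 of 10 T cell genes (0.74) were called higher. Neutrophil genes were called lower in 12 of 12 (median -1.77) and erythroid genes in 7 of 10 (-0.73). Stroma was mixed, with 6 of 16 higher and 3, all of them collagens, lower. Of 3 tested adipose genes, Fabp4 was called higher (list median 1.98), and the summed adipose signal was 395 to 1329 in ko at 1 month and 2200.1 to 5040.5 at 4 months. In wt, 9 of 10 macrophage genes (median 0.62), 9 of 10 B cell genes (0.73), 7 of 10 T cell genes (0.55) and 7 of 16 stroma genes were called higher, while 12 of 12 neutrophil and 10 of 10 erythroid genes were called lower. Fabp4 of the adipose list was also called higher in wt (list median 1.47, summed signal 526 to 2070.6 at 1 month and 1553 to 4534 at 4 months), as were 2 of 4 pancreas genes, Prss2 and Cela3b. Megakaryocyte and platelet markers, which share Vwf and Selp with the lists above, had 6 of 13 lower with age in wt and 2 higher in ko. Vcam1 of the macrophage list and Tal1 of the erythroid list are also in the lists above. So are Cd34, Gata2 and Procr of the stem and progenitor list and Mcam of the stroma list. Stem and progenitor markers had 3 higher and 2 lower of 10 in ko, and 1 higher and 2 lower in wt. At 4 months between genotypes, where no endothelial member was called, 12 of 12 neutrophil, 9 of 10 erythroid and 10 of 13 megakaryocyte markers were higher in ko, and 2 of 10 B cell genes were lower. None of the 10 endothelial genes is in another marker list, which reflects how the lists were chosen. It does not show that other spleen cells lack these transcripts. Every marker but Lep of the adipose list reached 100 on at least 1 array.

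Scaling shifted the zero line of some comparisons. Centring each array on its median moved the median of all probe sets from -0.04 to 0.12 at 1 month and from 0.10 to -0.05 with age in ko. The members' median moved with it, from -0.24 to -0.08 and from 0.56 to 0.41. Of all calls at 1 month, 45.8% were higher in ko as scaled here, 58.5% after quantile normalization and 78.8% after median centring. With age in ko those shares were 59.6%, 50.7% and 36.6%. All member calls under these 2 scalings with age were upward, 6 and 5 in ko and 2 each in wt.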

How the data were processed

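The labels name total RNA, extracted with Trizol, as the starting material and biotin as the label for the 12 Affymetrix arrays. The authors deposited 1 intensity value for each probe set and array, not log-transformed, made with MAS5 per the submitters' processing notes, which give no version. Repeating the scaling to a 2% trimmed mean of 500 moved no value by enough to alter a call. Of 45101 rows, 64 control probe sets were left out of the tests. The platform annotation named a single gene for 34945 probe sets and several for 932, while 9160 had no symbol.

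Log2(scaled signal + 32) was fitted for probe sets of at least 100 in at least 3 arrays, 27041 in all, with 4 group means over all 12 arrays, using limma 3.58.1 (lmFit, eBayes with an intensity trend) in R 4.3.3. There were 8 residual and 8.27 prior degrees of freedom. The 5 contrasts were ko against wt at each age, their difference, and 4 months against 1 month in each genotype. Tests were 2-sided and Benjamini-Hochberg adjusted. Fold changes are on the log2(signal + 32) scale, which understates changes of low signals. The script was tested on simulated data. The number of arrays limits the precision.

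Genes named are all members, every called gene of 6 endothelial lists and, where a contrast called none, the 2 with the smallest p, and for likeness the 3 genes with the highest r. Genes and lists were chosen with earlier results of these data known. Alternatives were quantile normalization, median centring, no further scaling, eBayes without trend and robust, a filter at 200 or none, offsets of 1, 8 and 64, array weights, an adjusted p under 0.10, blocks for replicate number and array set, the compared groups alone, and each array left out. Within-set fits and both blocks together were added after seeing the data. Replicate numbers did not pair the samples: over 18 pairs with the same number in different groups, r of the deviations from group means ran from -0.20 to 0.21 (median 0.01). Neither scan dates nor detection calls entered the fits.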

Additional observations from a re-analysis of the deposited data

How the results depend on the processing

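Of 232 alternative values for the 10 called differences, 204 kept their direction and call, 28 kept their direction and lost the call, and none reversed. Some of the 204 could not have lost the call. The looser limit on the adjusted p used the same fit, and the fit without further scaling gave nearly the same values. The 232 also include the fits within the low set, so the tally is not a measure of stability. Of 1705 alternative values for the differences not called, 1569 stayed so with the same sign, 7 became called and 129 changed sign, none of these with a size above 0.525 as reported. At 1 month the count of called members was 1, and it was 0 under quantile normalization, median centring, eBayes without trend, the array set block, a fit of the compared groups alone, both blocks together and within the low set, and 0 to 1 with an array left out. With age in wt it was 2 as reported, 1 in a fit of the compared groups alone, 0 within the low set and 1 to 3 with an array left out. With age in ko it was 7, with 11 under array weights and 6 to 7 with an array left out, and both blocks together ended the Cldn5 and Tek calls. At 4 months and for the difference between genotype effects it was 0 under every alternative run. Over all probe sets, 1590 were called at 1 month without replicate 3 of wt, against 120 with it. With the replicate number as a block, 0 members were called at 1 month and no other member count changed. Causes of these changes were not tested. Within the low set, groups other than ko at 1 month hold 1 mouse, assumed to vary like the others, so calls kept or lost there say nothing about stability. No fit within the high set was possible for ko at 1 month, so 3 of the 5 contrasts have none. Taking the probe set with the widest span of group means in place of the lead changed it for Egfl7 alone (0.35 against 0.33 log2 units).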
